A study of Rattus norvegicus with 21 samples.

Results

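Hemoglobin and red cell genes were followed here in cultured rat islets: the alpha globins Hba-a2 and Hba2, the beta globins Hbb and Hbb-b1, and Alas2. They were picked by symbol, and their rows make up 5 of the 17025 genes in the deposited count table. The 4 globin genes passed the low-count filter and were among the 12576 genes tested. Alas2 did not pass it and is described mainly by its reads.

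The RNA came from primary pancreatic islets of Sprague Dawley rats, in 21 libraries. In each of 3 separate preparations, islets of 8 rats were pooled and divided over the culture conditions, so a library is a pool and not an animal. Control islets were kept in 11 mM glucose without palmitate. Glucolipotoxic (GLT) islets were kept in 27 mM glucose with 300 µM palmitate, a fatty acid, alone or with 300 nM of either compound D or E. Each culture lasted 3 h or 24 h. Condition 1 was the 3 h control, condition 4 was 24 h GLT, and conditions 5 and 6 were GLT with compound D at 3 h and 24 h, with 3 libraries each. Condition 7 was 3 h GLT with compound E in 1 library (preparation 2), and condition 8 was 24 h GLT with compound E in 2 libraries (preparations 1 and 2). The sources disagree on the 6 libraries of conditions 2 and 3. By the sample records, condition 2 was control at 24 h while condition 3 was GLT at 3 h. By the deposited sample sheet, these labels are exchanged: condition 2 was GLT at 3 h and condition 3 was control at 24 h. The sheet therefore has conditions 1, 2, 5 and 7 at 3 h and conditions 3, 4, 6 and 8 at 24 h. The record has conditions 1, 3, 5 and 7 at 3 h and conditions 2, 4, 6 and 8 at 24 h. Tests of time or treatment that use condition 2 or 3 are given in both readings. Where levels are set out for conditions 1, 2, 5 and 7 against the rest, the split follows the sheet's times only. The structures of compounds D and E were not given in the sources used here.

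Hemoglobin is a tetramer of alpha and beta globin chains, each holding a heme. Red cells lose their nucleus when they mature, and reticulocytes, the youngest circulating red cells, still carry globin messenger RNA. Alas2 is the erythroid form of the enzyme that starts heme synthesis, while Alas1 serves the other cells. Freshly isolated islets contain capillaries, in which blood cells can remain.

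The number after each symbol in the table is the NCBI gene ID, and the names have moved since. The row Hba-a2 is gene 25632, which RefSeq GRCr8 now calls Hba-a1, and the row Hba2 is gene 360504, now called Hba-a2. The table's own symbols are kept here, with Hbb as gene 24440, Hbb-b1 as gene 361619 and Alas2 as gene 25748. The duplicated globin genes are near copies, so the split of reads between Hba-a2 and Hba2, and between Hbb and Hbb-b1, is uncertain. Their sums avoid that doubt but not another. Reads with several alignments (4.92% to 23.4% by library) were counted apart from the genes, so the sums can miss globin reads too.

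The stretches upstream of 3 globin genes are shown to make visible how alike the alpha copies are and how different Hbb is. RefSeq GRCr8 had an entry for 5 of the 5 members. Each line gives the 200 bases before the annotated start, 5′ to 3′, on the minus strand, at chr10:15842581-15842780 for Hba-a2, chr10:15829139-15829338 for Hba2 and chr1:167663722-167663921 for Hbb. Capitals mark matches, on either strand, to 5 motifs. These were the GATA box AGATAA, the other frequent form of that box, TGATAA, the CACC box, spelled CCACACCC, the CCAAT box, and the core of the TATA box, spelled ATAAA.
Hba-a2: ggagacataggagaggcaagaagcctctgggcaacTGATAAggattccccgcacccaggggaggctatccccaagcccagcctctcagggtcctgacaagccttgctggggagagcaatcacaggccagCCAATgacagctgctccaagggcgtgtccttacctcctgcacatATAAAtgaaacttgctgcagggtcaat
Hba2: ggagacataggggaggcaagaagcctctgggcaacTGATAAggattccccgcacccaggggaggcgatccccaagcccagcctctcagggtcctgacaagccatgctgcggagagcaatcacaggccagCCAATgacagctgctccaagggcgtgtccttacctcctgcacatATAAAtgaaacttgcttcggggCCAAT
Hbb: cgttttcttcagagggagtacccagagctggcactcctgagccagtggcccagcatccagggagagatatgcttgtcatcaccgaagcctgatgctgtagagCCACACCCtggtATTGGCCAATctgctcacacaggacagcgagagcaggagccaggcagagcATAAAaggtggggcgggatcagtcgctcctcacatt
The alpha windows were identical at 193 of 200 positions (96.5%), and Hba-a2 and Hbb, without alignment, at 44 of 200 (22%). Both alpha windows held the second GATA form at -165 to -160, the CCAAT box at -71 to -67 and the TATA core at -27 to -23, counted back from the base before the start as -1. Hba2 alone had a further CCAAT box, at -5 to -1. The Hbb window held the CACC box at -98 to -91, CCAAT boxes on both strands between -86 and -77, and the TATA core at -36 to -32. The first GATA form was in none of the 3 windows. Over all 27457 promoter windows of this length, the first GATA form was found in 8.03%, the second in 6.17%, the CACC box in 2.36%, the CCAAT box in 29.3% and the TATA core in 32.5%, on either strand. The matches describe letters only and say nothing of binding.

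Libraries held 22.3 M to 40.2 M counts in genes (median 27.8 M), and 3 counts, taken as the floor, were worth 0.0804 to 0.144 CPM (counts per M counts in genes, with library totals scaled by TMM factors). Summed globin reads ran from 15 to 608 per library, so counting error limits every value below. The insulin genes, markers of the beta cell, took 9.32% to 45.9% of the counts. One library stood apart: the condition 3 library of preparation 2 had the highest share of reads with several alignments (23.4%, against a median of 6.12%) and the lowest share of ambiguous reads (0.161%). Hbb and Hbb-b1 were both at 0 reads in it.

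Globin transcripts were rare in every library and fell into separate ranges by condition. The summed CPM of the 4 globin genes was 18.8 in the 1 library of condition 7, 15.1 ± 3.22 in condition 2, 10.5 ± 2.47 in condition 1 and 10.5 ± 7.83 in condition 5 (mean ± SD, n = 3 except condition 7). It was 1.26 ± 0.704 in condition 6 (n = 3), 1.06 ± 0.197 in condition 8 (n = 2), 1.00 ± 0.175 in condition 3 and 0.744 ± 0.156 in condition 4 (n = 3). Conditions 1, 2, 5 and 7 spanned 5.17 to 19.5 CPM over 10 libraries, and conditions 3, 4, 6 and 8 spanned 0.565 to 2.07 over 11, with no overlap. Neighbours in this order of means overlapped, with 3 exceptions: across that gap, between conditions 3 and 4 (lowest 0.898 against highest 0.850), and between condition 7, whose 1 library has no spread, and condition 2. These ranges follow the sheet's times: every library that the sheet gives as 3 h was above every library that it gives as 24 h. Under the record's times, the 24 h control libraries were among the high ones and the 3 h GLT libraries among the low ones.

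**Figure D1:**
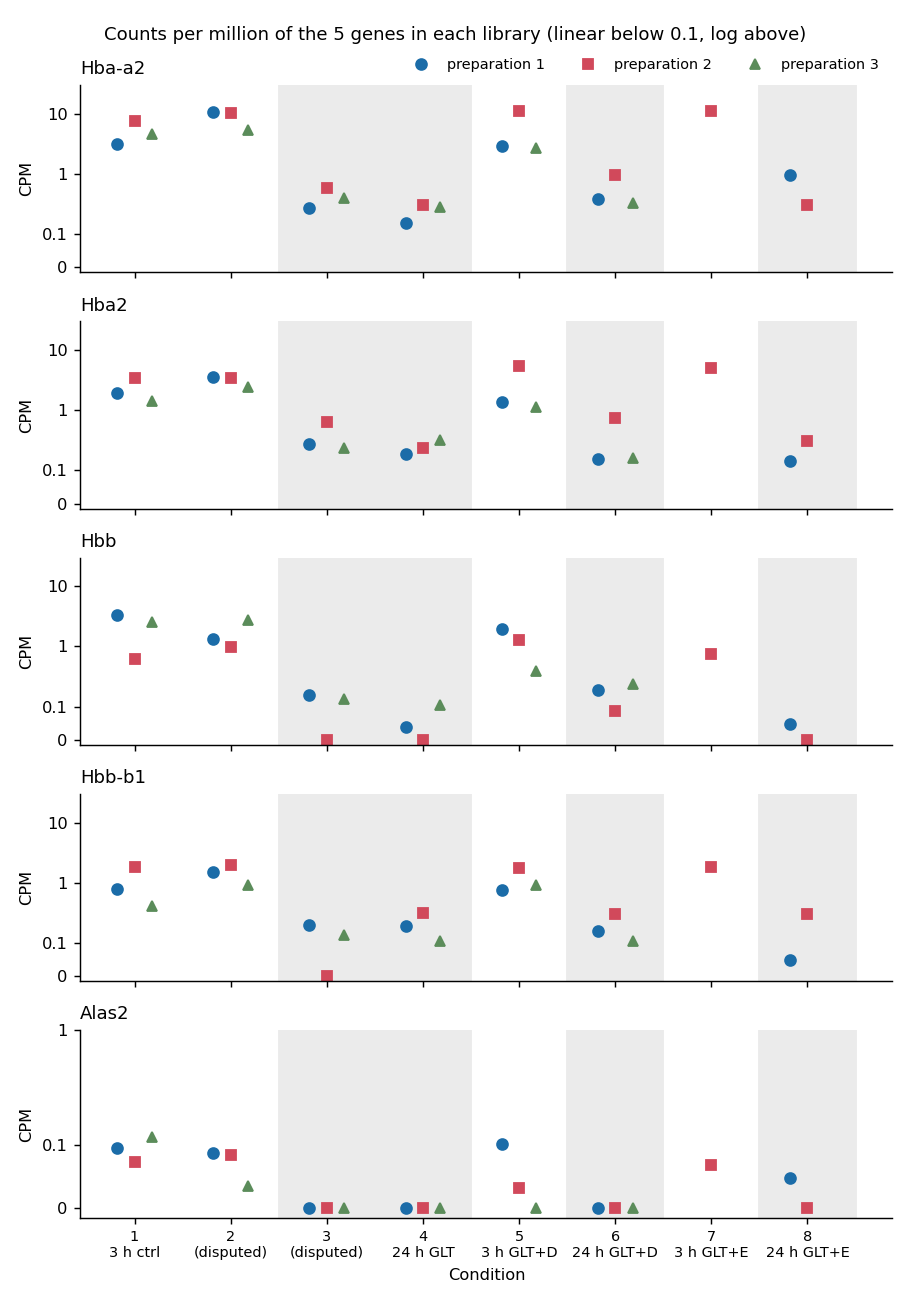
CPM of each gene (vertical axes, linear below 0.1 and logarithmic above) in each of the 21 libraries, by condition (horizontal axis) and preparation (symbols); shading marks conditions 3, 4, 6 and 8, which the sample sheet gives as 24 h. Hba-a2 runs from 2.71 to 11.2 CPM in the unshaded conditions and from 0.151 to 0.961 in the shaded ones.

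Each globin gene showed the same gap. Hba-a2 had 76 to 345 reads per library in conditions 1, 2, 5 and 7 and 4 to 22 in conditions 3, 4, 6 and 8. Hba2 had 32 to 168 and 3 to 21 reads. Hbb had 11 to 105 and 0 to 9 reads, and Hbb-b1 had 14 to 55 and 0 to 9. None of the 4 genes had overlapping ranges, and preparation 2 held the highest alpha globin library within conditions 1, 3, 5 and 6. How many of all genes tested had such a gap was not counted, so it is not shown to be particular to globins. Of 12572 other genes, 167 had a Pearson correlation over 0.8 with the globin mean across the libraries. Across the 21 libraries, with preparation means removed, log2(CPM + 1) of Hba-a2 and Hba2 had a Pearson correlation of 0.977, and the other pairs of globin genes 0.714 (Hbb with Hbb-b1) to 0.938. These values describe libraries that share conditions and preparations.

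Under GLT with compound D, where both sources give the same labels, all 4 tested globin genes fell between 3 h and 24 h. Hba-a2, an alpha chain gene, had 2.88, 11.1 and 2.71 CPM at 3 h in preparations 1, 2 and 3, and 0.376, 0.950 and 0.322 CPM at 24 h. The groups did not overlap, and each preparation lost most of its signal. Hba-a2 fell by 3.25 on the log2 scale (SE 0.519, 95% interval -4.36 to -2.14, a 9.53-fold lower level, adjusted p = 0.00258, edgeR). Hba2, the other alpha chain gene, had 1.39, 5.39 and 1.14 CPM at 3 h and 0.157, 0.734 and 0.161 CPM at 24 h. It fell by 2.88 (SE 0.446, adjusted p = 0.00207), also without overlap. How many of all genes tested separated in this way was not counted. In bulk RNA such as this, fewer cells of a type and less RNA per cell cannot be told apart.

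The beta chain genes were lower with less certainty. Hbb had 1.93, 1.28 and 0.392 CPM at 3 h and 0.188, 0.0864 and 0.241 CPM at 24 h in preparations 1 to 3. Preparation 3 was the weak one, with 11 reads at 3 h and 9 at 24 h, or 61.6% left with a counting interval of 22.6% to 163%. Over the preparations Hbb fell by 2.95 (SE 0.730, adjusted p = 0.0283). Hbb-b1 had 0.745, 1.77 and 0.926 CPM at 3 h and 0.157, 0.302 and 0.107 CPM at 24 h, and fell by 2.61 (SE 0.613, adjusted p = 0.0217). The count of 4 of 4 stands beside 6.11% of all genes tested that passed in this comparison, 3.05% of them lower at 24 h. The globin sum left at 24 h was 12.6% (counting interval 8.19% to 18.8%) in preparation 1, 10.6% (7.74% to 14.3%) in preparation 2 and 16.1% (10.5% to 23.8%) in preparation 3. Without preparation 1, and without preparation 3, 0 of the 4 passed, with fitted changes between -2.39 and -3.64, and without the replicate block 2 passed.

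Under GLT with compound E, where the sources also agree, the globin genes were lower at 24 h but only Hba2 passed. The 3 h arm is a single library, which the fit assumes to vary like the others. Hba2 had 5.01 CPM at 3 h (preparation 2) and 0.144 and 0.308 CPM at 24 h (preparations 1 and 2), and fell by 4.01 (SE 0.651, adjusted p = 0.0218). Hba-a2 had 11.2 CPM at 3 h and 0.961 and 0.308 CPM at 24 h (log2 change -3.72, SE 0.744, adjusted p = 0.0539). Hbb-b1 had 1.82 CPM and then 0.0481 and 0.308 CPM (-2.98, SE 0.851, adjusted p = 0.194). For Hbb, 22 reads at 3 h stood against 1 read in both 24 h libraries together, too few for a firm fold (adjusted p = 0.141). Of all genes tested, 0.278% passed here. Within preparation 2 the globin sum went from 559 to 27 reads, leaving 4.91% (counting interval 3.21% to 7.22%). The Hba2 call was lost without the replicate block (adjusted p = 0.112) and in the 15 libraries outside conditions 2 and 3 (0.109), and DESeq2 called all 4.

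The 6 disputed libraries decide what the control and GLT arms show. Taken as condition pairs, Hba-a2 had 3.11, 7.46 and 4.64 CPM in condition 1, 10.9, 10.3 and 5.29 in condition 2, 0.274, 0.571 and 0.399 in condition 3, and 0.151, 0.309 and 0.284 in condition 4 (preparations 1, 2 and 3). Conditions 1 and 2 overlapped, conditions 3 and 4 overlapped, and neither of the first pair overlapped the second. Under the record's labels, the time comparison in control islets is condition 2 against 1. There 0 of 4 globin genes passed, with log2 changes of 0.84 (Hba-a2, SE 0.449), 0.58 (Hba2, SE 0.382), -0.22 (Hbb, SE 0.590) and 0.66 (Hbb-b1, SE 0.517), beside 2.3% of all genes. Under the sheet's labels it is condition 3 against 1, and 3 of 4 fell, beside 0.692% of all genes. Hba-a2 fell by 3.58 (SE 0.535, adjusted p = 0.0105), Hba2 by 2.61 (SE 0.442, adjusted p = 0.0173) and Hbb by 4.42 (SE 0.776, adjusted p = 0.0202). Hbb-b1 missed the threshold (-3.01, SE 0.680, adjusted p = 0.0591). Without the condition 3 library of preparation 2, condition 3 against 1 had 0 calls, with values of -3.52 (Hba-a2, adjusted p = 0.0506), -2.67 (Hba2, 0.0704), -4.04 (Hbb, 0.0632) and -1.995 (Hbb-b1, 0.114).

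In GLT islets without a compound, the record's time comparison is condition 4 against 3, and 0 of 4 passed, beside 5.97% of all genes. The log2 changes there were -0.72 (Hba-a2, SE 0.643), -0.46 (Hba2, SE 0.522), -0.84 (Hbb, SE 1.18) and 0.79 (Hbb-b1, SE 0.789). The sheet's time comparison is condition 4 against 2, and 4 of 4 fell, beside 8.52% of all genes. Hba-a2 fell by 5.13 (SE 0.583, adjusted p = 0.000207), Hba2 by 3.65 (SE 0.471, adjusted p = 0.000466), Hbb by 5.03 (SE 0.874, adjusted p = 0.00367) and Hbb-b1 by 2.88 (SE 0.615, adjusted p = 0.0119). The comparisons share conditions 1 to 4, so they are not independent of one another.

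**Figure D2:**
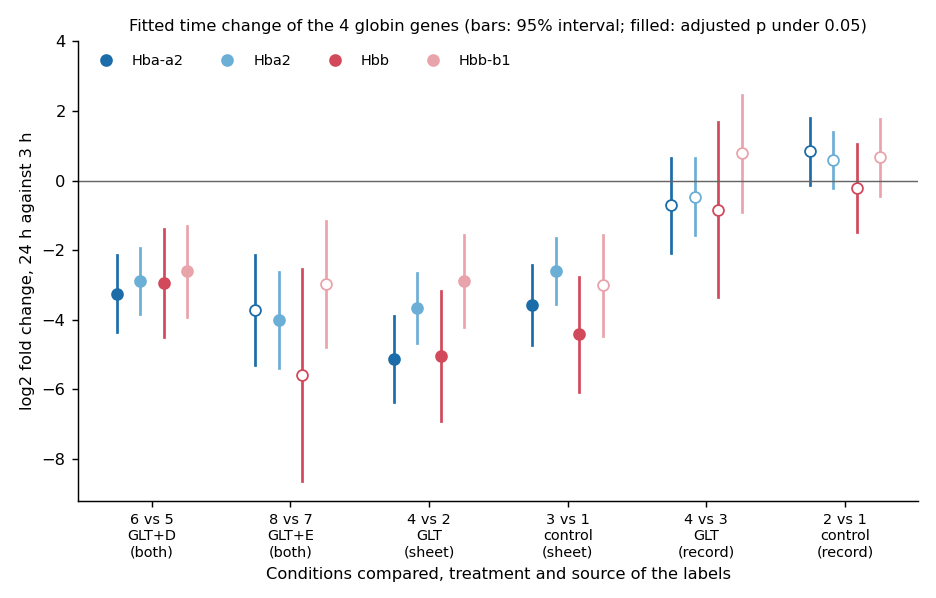
Fitted log2 fold change of 24 h against 3 h (vertical axis) with its 95% interval for the 4 globin genes, by the conditions compared, the treatment and the source of the labels (horizontal axis); filled points have adjusted p under 0.05 and "both" means that the sources agree. The intervals lie below 0 in the compound D and compound E pairs and in both pairs read with the sheet, and include 0 in both pairs read with the record.

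The same condition pairs carry the treatment effect under the other reading. GLT against control at 24 h is condition 4 against 2 by the record (4 of 4 lower, 8.52% of all genes called) and condition 4 against 3 by the sheet (0 of 4, 5.97%). GLT against control at 3 h is condition 3 against 1 by the record (3 of 4 lower, 0.692%) and condition 2 against 1 by the sheet (0 of 4, 2.3%). In these pairs the effects of GLT and of culture time cannot be told apart while the labels conflict. Without preparation 1, the globin genes called were 1 in condition 4 against 2 and 0 in condition 3 against 1, and without preparation 3 they were 2 and 0.

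Compound D and compound E were set against the conditions nearest to them. At 3 h, compound D (condition 5) against the 3 h control (condition 1) had 0 of 4 calls, with log2 changes of -0.02 (Hba-a2, 95% interval -0.95 to 0.91), 0.03 (Hba2, -0.82 to 0.88), -0.56 (Hbb, -1.85 to 0.74) and 0.28 (Hbb-b1, -0.82 to 1.39), beside 0.103% of all genes. Against 3 h GLT, all 4 globin genes were higher by the record (condition 3, log2 changes 2.64 to 3.86, adjusted p 0.00231 to 0.012, 6.93% of all genes). Without preparation 1, and without preparation 3, that count was 0, while over the fits that left out libraries Hba-a2 kept 3.04 to 3.92, Hba2 2.31 to 2.78, Hbb 2.94 to 4.58 and Hbb-b1 2.30 to 4.20. By the sheet (condition 2) 0 of 4 passed (-0.86 to -0.34, 0.485% of all genes). At 24 h, compound D against GLT, which both sources label alike, had 0 of 4 calls, with log2 changes from -0.11 (Hbb-b1, 95% interval -1.63 to 1.41) to 1.75 (Hbb, -0.51 to 4.01), beside 4.09%.

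Compound E at 24 h against GLT had 0 of 4 calls beside 0% of all genes (edgeR; 812 genes had an unadjusted p under 0.05, and over the alternatives, DESeq2 included, 0 to 3241 passed). Its log2 changes ran from -0.88 (Hbb, 95% interval -4.65 to 2.88) to 1.21 (Hba-a2, -0.30 to 2.72). Compounds D and E, compared at the same dose and time in 1 pair of conditions at 24 h, had 0 of 4 calls beside 3.01% of all genes. The log2 differences, E minus D, were 0.19 (Hba-a2, 95% interval -1.19 to 1.57), -0.71 (Hba2, -2.04 to 0.61), -2.64 (Hbb, -5.84 to 0.57) and -0.28 (Hbb-b1, -2.08 to 1.52). The intervals are wide and include 0 for each of the 4 genes.

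Whether the time change itself differed between treatments was tested as a difference of differences. GLT minus control does not depend on the reading, and 0 of 4 passed, with values from -1.55 (Hba-a2, SE 0.784) to 0.12 (Hbb-b1, SE 0.823), beside 0.0716% of all genes. Compound D minus GLT by the record gave Hba2 alone (-2.42, SE 0.696, adjusted p = 0.0465), beside 7.75% of all genes, and by the sheet 0 of 4, with values from 0.27 to 2.09, beside 0.0318%. The Hba2 call was lost without the replicate block (adjusted p = 0.207), with no low-count filter (0.0514), and without preparation 1, preparation 3 or the condition 3 library of preparation 2, with values of -2.97 to -1.88 over the fits that left out libraries. Compound D minus control by the record gave Hba-a2 (-4.09, SE 0.684), Hba2 (-3.47, SE 0.587) and Hbb-b1 (-3.28, SE 0.803), beside 7.71%, and by the sheet 0 of 4, from -0.28 to 1.47, beside 0% of all genes (641 genes had an unadjusted p under 0.05). The record's count of 3 became 2 without the replicate block, 1 without preparation 1 and 0 without preparation 3, while Hba-a2 stayed between -4.46 and -3.67.

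Alas2, which makes the first intermediate of heme in red cell precursors, was at the edge of detection. It had 9 reads in condition 1, 5 in condition 2, 4 in condition 5 and 2 in condition 7. It had 0 reads in conditions 3, 4 and 6, and 1 read in condition 8. By the sheet, 20 reads in 9 of 10 libraries at 3 h stood against 1 read in 1 of 11 at 24 h. The ratio per count sequenced was 22.1, with a counting interval of 3.53 to 916. That interval pools reads over libraries, treatments and preparations. In edgeR fits without the low-count filter, Alas2 did not pass over time under compound D (-3.44, SE 1.68, adjusted p = 0.308). Nor did it pass in the sheet's control arm (condition 3 against 1, -4.53, SE 1.57, adjusted p = 0.298). The same held in its GLT arm (condition 4 against 2, -4.04, SE 1.72, adjusted p = 0.225). By the record, the reads were 9, 0, 4 and 2 at 3 h (conditions 1, 3, 5 and 7). They were 5, 0, 0 and 1 at 24 h (conditions 2, 4, 6 and 8), and no ratio was computed for that reading. The record's control time change, without the filter, was -0.53 (SE 0.999, adjusted p = 0.944, edgeR). No library had over 4 reads, and conditions at 0 are below the floor of 3 counts and not shown to lack the transcript.

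The balance of alpha to beta reads varied between libraries. Alpha reads made up 55.3% to 86.4% of the globin reads in conditions 1, 2, 5 and 7. They made up 58.1% to 92% in conditions 3, 4, 6 and 8, and 100% in the condition 3 library of preparation 2, where both beta genes were at 0. These are shares of reads, not of transcripts per length, and in the low conditions they rest on 15 to 48 reads a library.

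Of the other genes in the red cell lists, the heme synthesis and iron genes in the table were all tested (13 of 13 and 17 of 17), and so were 12 of 17 membrane and cytoskeleton genes, 12 of 15 enzyme genes and 6 of 10 erythroid transcription genes. The embryonic and fetal globin rows Hbe1, Hbe2, Hbz and Hbg1 were at 0 in all 21 libraries. Ahsp, the chaperone of free alpha globin, had 232 reads in all and did not pass under compound D (0.345 ± 0.177 CPM at 3 h, 0.175 ± 0.126 at 24 h, n = 3, adjusted p = 0.356). LOC689064, kept in the list of other globin genes, had 47 reads in all and passed in condition 4 against 2 (adjusted p = 0.0488), with 0 and 18 reads. Its reads in conditions 1 to 8 were 5, 18, 2, 0, 14, 1, 6 and 1. LOC287167 of the same list, which was not tested, had 48 reads: 9, 8, 2, 6, 9, 2, 9 and 3 in that order. Gata1, the erythroid transcription factor, had 1 read over all libraries, and Kel, Rhag and Car1 had 0. Klf1 had 149 reads in all, with 0.217 ± 0.121 CPM at 3 h and 0.292 ± 0.0872 at 24 h under compound D. Hemgn had 9 and 20 reads there. Tal1 (1.07 ± 0.387 and 0.537 ± 0.395 CPM) and Lmo2 (7.24 and 5.48 CPM) had lower means at 24 h.

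Counted by list under compound D, the genes called stand beside 6.11% of all genes tested, and a list with 1 call of 12 or 13 is close to that share. There 0 of 12 red cell membrane and cytoskeleton genes tested passed, with a median log2 change of 0.02 where all genes had 0.02. Their means went both ways without passing. Slc4a1, the anion exchanger of the red cell membrane, had 0.206 ± 0.101 CPM at 3 h and 0.531 ± 0.0293 at 24 h (n = 3). That is 18 and 49 reads. Cd59 was also higher at 24 h (45.9 and 55.7 CPM), while Gypc (1.63 and 0.858 CPM) and Epb49 (52.8 and 36.8 CPM) were lower. Of 13 heme synthesis genes, 1 rose and 0 fell: Fech, which inserts the iron to form heme, rose by 0.59 (SE 0.131, adjusted p = 0.0169). Of 6 erythroid transcription and signalling genes, 1 rose, the erythropoietin receptor Epor (1.97, SE 0.363, adjusted p = 0.00653). Of 12 red cell enzyme and late maturation genes, 1 rose, Blvrb (1.12, SE 0.295, adjusted p = 0.0371). Of 17 iron and heme handling genes, 3 rose and 1 fell. Those that rose were Hmox1, which breaks heme down (2.63, SE 0.342, adjusted p = 0.000732), Slc48a1, a heme transporter (0.98, adjusted p = 0.0118), and Ftl, a ferritin subunit (1.80, adjusted p = 0.0283). Hamp, which encodes the iron hormone hepcidin, fell from 59 reads at 3 h to 0 at 24 h. The tissue globins Cygb and Ngb did not pass (0 of 2).

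The remaining time comparisons gave few calls in these lists. Under compound E no gene of the 7 red cell lists passed (0.278% of all genes did). By the record, 0 passed in control islets (2.3% of all genes), and in GLT islets (5.97%) 1 heme synthesis gene (Clpx) and 1 iron gene rose, and 1 erythroid (Ldb1) and 2 enzyme genes (Pklr and Fam46c) fell. By the sheet, Hamp alone fell in control islets (0.692% of all genes were called). In GLT islets by the sheet, where 8.52% of all genes were called, 3 of 13 heme synthesis genes rose, 2 of 17 iron genes rose and 1 fell, and 3 of 6 erythroid genes, 1 of 12 membrane genes (Epb49) and LOC689064 fell. Most of these genes are also expressed outside red cells.

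Markers of other cells were read beside the globins. The summed level of the 14 endothelial markers, genes of the lining of blood vessels, moved with them. This sum was 261 to 341 CPM in conditions 1, 2, 5 and 7 and 49.6 to 167 CPM in conditions 3, 4, 6 and 8, without overlap. Under compound D 5 of 14 fell, beside 3.05% of all genes, with a median log2 change of -1.17 where all genes had 0.02. Among them were Tek (-2.60, SE 0.338, adjusted p = 0.000732), Plvap (-2.34, SE 0.450, adjusted p = 0.00812), Kdr (-1.81, SE 0.373, adjusted p = 0.0116) and Eng (-1.26, SE 0.225, adjusted p = 0.00547). Not every marker was lower: under compound D the means of Egfl7 (6.72 and 7.91 CPM) and Cldn5 (0.113 and 0.522 CPM) were higher at 24 h. Under compound E 0 of 14 passed (median -0.82), beside 0.278% of all genes. By the record 0 of 14 passed in control islets and in GLT islets, where 2.3% and 5.97% of all genes did. By the sheet 3 of 14 fell in control islets, beside 0.437% of all genes, and 10 of 14 in GLT islets, beside 4.89%. The endothelial medians of conditions 1, 2, 5 and 7 and of the rest were 293 and 134 CPM, and the globin medians were 12.4 and 0.898 CPM, a wider gap as a ratio. The part of the endothelial change in the globin result was not tested.

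**Figure D3:**
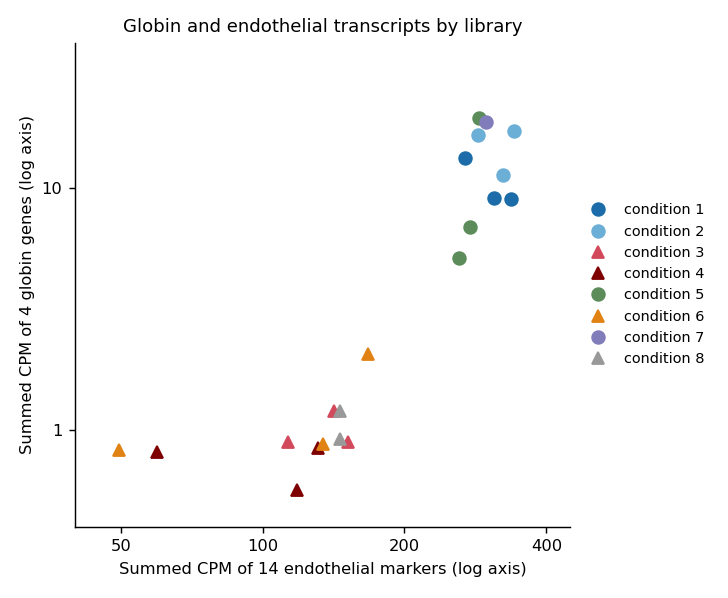
Summed CPM of the 4 globin genes (vertical, log axis) against summed CPM of 14 endothelial markers (horizontal, log axis), 1 point per library, coloured by condition; circles are conditions 1, 2, 5 and 7 and triangles conditions 3, 4, 6 and 8. The circles lie at 5.17 to 19.5 globin and 261 to 341 endothelial CPM, and the triangles at 0.565 to 2.07 and 49.6 to 167 CPM.

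Summed lists of other blood cell markers did not show the gap, though the neutrophil list could hardly show one. Few genes carried the platelet and lymphocyte sums. Summed over their lists, neutrophil markers were at 0.305 to 0.711 CPM in conditions 1, 2, 5 and 7 and 0.210 to 1.03 in conditions 3, 4, 6 and 8. Platelet markers were at 1.37 to 2.39 and 0.631 to 4.42 CPM, lymphocyte markers at 5.63 to 9.18 and 4.36 to 16.4, and macrophage markers at 49.6 to 93.1 and 52.2 to 105. Each of these 4 lists overlapped between the sets. Mpo, Retnlg, Cxcr2 and Ltf of the neutrophil list had 0 reads in all 21 libraries, as had Ppbp, Gp1bb and Treml1 of the platelet list. The platelet sum rested mostly on Pf4 (522 reads in all) and Gp5 (539), each with reads in all 21 libraries. Those read numbers are like that of Hbb, which showed the gap. In the lymphocyte list, Cd4 had 3536 reads in all, against 31 for Cd3e and 49 for Ms4a1. Loss or stay of these cells therefore cannot be read from the neutrophil, platelet and lymphocyte sums. No gene of the 4 lists passed in any of the 4 time comparisons under either reading. Under compound D, 2 of 10 stellate and fibroblast genes rose, 1 of 9 beta cell genes fell (Iapp) and no acinar or other endocrine marker passed.

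**Figure D4:**
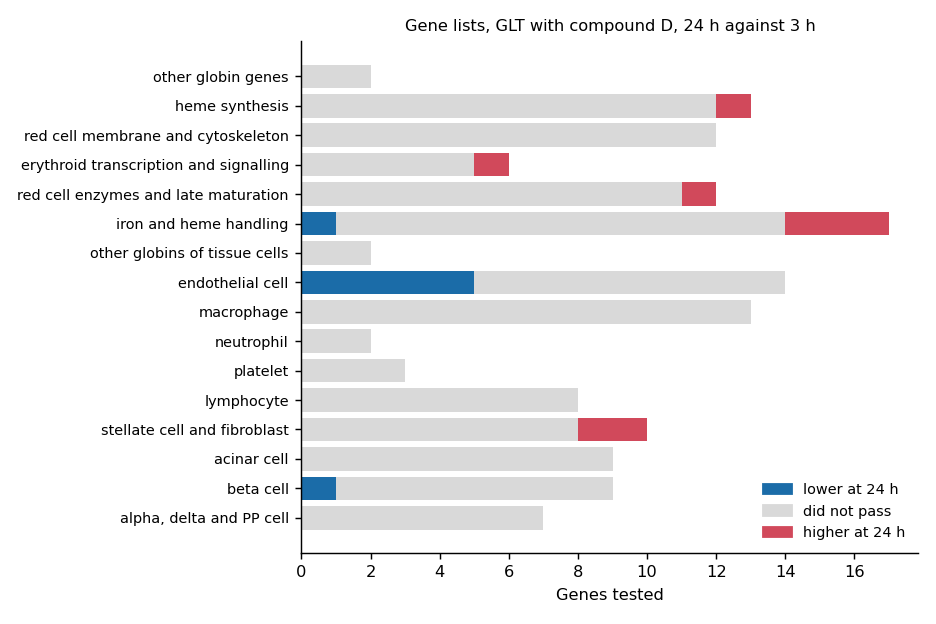
Number of genes tested in each list (horizontal axis), under GLT with compound D, 24 h against 3 h, coloured by direction where the adjusted p was under 0.05. The endothelial list has 5 of 14 lower genes, and the membrane list has 0 of 12 in either direction.

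The genes with the pattern most like the globins were ranked by Pearson correlation of log2(CPM + 1) with the mean of the 4 globin genes, over 21 libraries with preparation means removed and 12572 genes. The highest were Hsbp1l1 (0.954), A1bg (0.945), Troap (0.941), Eng (0.935), Hamp (0.931), Tp53inp2 (0.924), Kif18b (0.922), Cyp1a1 (0.920), Col13a1 (0.920) and Cenpw (0.919). Of these, 5 were also in the top 10 over the 15 libraries outside conditions 2 and 3. A1bg, a plasma protein gene, had mean levels of 8.47, 6.84, 7.30 and 9.92 CPM in conditions 1, 2, 5 and 7 and of 1.08, 0.935, 2.36 and 1.14 in conditions 3, 4, 6 and 8. The ranking describes these libraries, which share conditions, and carries no test.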

How the data were processed

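Counts are reads per gene as deposited, not normalized. Per the labels' protocols, the authors aligned read pairs to the rn5 build (TopHat2 2.0.3 run with Bowtie2 2.0.0) and counted with HTSeq; the strand setting and annotation are not given in the sources used here. The 5 rows naming no gene were left out. CPM used TMM factors. Genes were tested with edgeR 4.0.16 (R 4.3.3, quasi-likelihood, filterByExpr) over 21 libraries, with condition and preparation as terms (11 residual degrees of freedom) and Benjamini-Hochberg adjustment over 12576 genes, threshold 0.05. The preparation is a block because its islets came from the same pool; residuals of libraries of one preparation correlated at 0.193 on average (-0.146 between preparations, lowest pair within one -0.719). On simulated data for the compound D time comparison (12422 genes), 28% of 2-fold and 82.3% of 4-fold changes were recovered and 0 of 12226 unchanged genes passed. Record labels were the main labels. The 5 members and all gene lists were chosen with earlier results of these data known, and the TATA motif was shortened after its sequences had been seen. Every member is named; in each list, up to 4 genes with the smallest adjusted p among those passing in a time comparison, or 2 of highest mean CPM, could be named, and any other gene named was chosen after its values were seen; the most alike genes are the 10 of highest correlation. Alternatives were the sheet's labels, no replicate block, DESeq2 1.42.0, other size factors, no filter, fewer libraries and leaving out each preparation. One more, leaving out the condition 3 library of preparation 2, was chosen after seeing the data. Intervals on reads are 95% and, like the floor of 3 counts, cover counting error only.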

Additional observations from a re-analysis of the deposited data

Results flagged for a closer look

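Under the record's labels, the time change differed between treatments by a test of the difference itself. For GLT with compound D minus control, the difference was -4.09 for Hba-a2 (adjusted p = 0.00262, edgeR), -3.47 for Hba2 (adjusted p = 0.00279) and -3.28 for Hbb-b1 (adjusted p = 0.0226). For GLT with compound D minus GLT it was -2.42 for Hba2 (adjusted p = 0.0465). These comparisons share the compound D libraries, and each uses a disputed condition. Under the sheet's labels none of the 4 passed: the values were 0.33, -0.28 and 0.40 against control and 0.77 against GLT. By the record, the count against control was 1 without preparation 1 and 0 without preparation 3, and the Hba2 call against GLT was lost without either of them, without the replicate block and with no low-count filter.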

How the results depend on the processing

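Under compound D all 4 globin genes kept a negative change in every alternative, but the number called did not hold: it was 4 in the fit reported, 2 without the replicate block, and 0 to 4 when a preparation or a library was left out, with 0 without preparation 1 and 0 without preparation 3. Under compound E the changes were negative in every alternative too, and the number called was 1, 0 without the replicate block, 4 with DESeq2, 2 with library size only, 0 in the 15 libraries outside conditions 2 and 3, and 0 to 2 when libraries were left out. The compound E time comparison could not be fitted without preparation 2, nor on its own groups. With the sheet's labels the globin genes called went from 0 to 3 in control islets and from 0 to 4 in GLT islets over time, and to 0 for GLT against control at 24 h, GLT against control at 3 h, compound D against GLT at 3 h, and the differences of the time change of compound D from GLT and from control. Signs turned there for the control time change (Hba-a2 -3.58, Hba2 -2.61, Hbb-b1 -3.01), the GLT time change (Hbb-b1 -2.88), compound D minus GLT (Hba-a2 1.88, Hba2 0.77, Hbb 2.09, Hbb-b1 0.27), compound D minus control (Hba-a2 0.33, Hbb 1.47, Hbb-b1 0.40), GLT against control at 24 h (Hbb-b1 0.79) and at 3 h (Hba-a2 0.84, Hba2 0.58, Hbb-b1 0.66) and compound D against GLT at 3 h (Hba-a2 -0.86, Hba2 -0.55, Hbb -0.34, Hbb-b1 -0.38). The sheet's labels change which conditions are compared, which is why these turn.

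Other counts of globin genes called that moved were, for compound D minus GLT, 0 without the replicate block, 3 with DESeq2 and 0 with no low-count filter, and, for GLT against control at 3 h, 1 without the replicate block. In a fit of the compared groups alone, 0 were called for GLT against control at 3 h and 0 for compound D against GLT at 3 h. Leaving out a preparation or a library gave 0 to 3 for compound D minus GLT and for compound D minus control, 1 to 4 for GLT against control at 24 h, 0 to 4 at 3 h, 0 to 4 for compound D against GLT at 3 h, and 0 to 1 for compound E against GLT. Values that had not passed changed sign for compound D against the 3 h control (Hba-a2 0.14 without the replicate block and 0.054 with library size only, Hba2 -0.0057 in the 15 libraries) and for compound E against compound D (Hbb-b1 0.059 without the replicate block, Hba-a2 -0.22 with library size only and -0.12 in its own groups). Leaving out libraries also changed the sign of values that had not passed. The ranges were -0.49 to 0.29 (Hbb) in the control time change and -1.03 to 0.035 (Hba2) and -0.23 to 1.47 (Hbb-b1) in the GLT time change. They were -1.20 to 0.97 (Hbb-b1) for GLT minus control and -0.66 to 0.89 (Hba2) for compound D against GLT at 24 h. For compound D against the 3 h control they were -0.44 to 0.33 (Hba-a2), -0.38 to 0.27 (Hba2), -1.35 to 0.017 (Hbb) and -0.072 to 0.58 (Hbb-b1). For compound E against GLT they were -0.47 to 2.07 (Hba-a2), -0.95 to 0.055 (Hba2), -3.08 to 0.17 (Hbb) and -1.76 to 0.13 (Hbb-b1), and against compound D -1.40 to 1.40 (Hba-a2) and -1.64 to 0.20 (Hbb-b1). The cause was not tested.

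The counts over all genes moved as well. Besides the sheet's labels, they ran from 9 to 1885 under compound D (769 in the fit reported), 0 to 199 under compound E (35), 7 to 587 in control islets (289) and 15 to 1272 in GLT islets (751), with 382, 9, 169 and 305 without the replicate block. For GLT against control they ran from 21 to 3263 at 24 h (1072) and 0 to 378 at 3 h (87), and for compound D against GLT from 0 to 897 at 24 h (514) and 0 to 1420 at 3 h (872), and against the 3 h control from 1 to 107 (13). For the differences of time changes they ran from 0 to 113 for GLT minus control (9), 12 to 1557 for compound D minus GLT (975) and 51 to 1499 for compound D minus control (970). At 24 h the counts for compound E were 0 to 3241 against GLT (0) and 0 to 4543 against compound D (378), with 3241 and 4543 without preparation 2 and 0 and 0 without preparation 1. Depth sets a limit of its own: 3 counts are 0.0804 to 0.144 CPM, near the levels of Hbb, Hbb-b1 and Alas2 in conditions 3, 4, 6 and 8.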
